A study of Mus musculus with 6 samples.

Results

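The hepatocyte identity transcription factors examined here are 9 genes, Hnf4a, Foxa1, Foxa2, Foxa3, Cebpa, Cebpb, Onecut1, Nr5a2 and Prox1, taken by symbol from 18419 genes with a fragment in any library. All 9 passed the filter on low counts, as did 13431 genes in all. The livers came from Mettl14f/f males, in which both Mettl14 alleles are floxed. HFD feeding began at 8 weeks of age, AAV8-TBG-Cre or AAV8-TBG-GFP was given by tail vein 10 weeks later, and livers were taken 8 weeks after the vector. AAV8-TBG is a viral vector whose TBG promoter is active in hepatocytes, so recombination of the floxed alleles is directed to these cells and not to the other cells of the liver. The labels call the AAV8-TBG-GFP livers WT and the AAV8-TBG-Cre livers METTL14 KO. There were 3 livers per vector, and all 6 animals shared the floxed alleles, the HFD and the virus.

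Hepatocyte identity rests on a small set of transcription factors that bind each other's genes and the genes for plasma proteins, lipoproteins, bile acid enzymes and gluconeogenic enzymes. HNF4A is a nuclear receptor that keeps adult hepatocytes differentiated. The FOXA proteins are forkhead factors that open chromatin, C/EBPα is linked to metabolic genes and growth arrest, and C/EBPβ to the acute phase, to gluconeogenesis and to regeneration. ONECUT1 (HNF6), NR5A2 (LRH-1) and PROX1 act in liver development and, in the adult, in bile acid, cholesterol and lipid metabolism.

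The promoter sequences of 4 factors are shown: the C/EBP pair, whose ratio did not overlap between the vectors, Foxa3 and Onecut1. Foxa3 was the FOXA gene with the largest difference, and Onecut1 the most variable factor. Each sequence is the 250 bases before the annotated start from RefSeq on GRCm38.p6, written 5′ to 3′ on the strand of the gene. GRCm38.p6 is the assembly of the mm10 build named in the submitters' processing notes. Capitals mark TATAAA, the core of a TATA box, or TGACG, the core of a cAMP response element, on either strand (CGTCA is TGACG on the other strand).
Cebpa, chr7:35119043-35119292, plus strand: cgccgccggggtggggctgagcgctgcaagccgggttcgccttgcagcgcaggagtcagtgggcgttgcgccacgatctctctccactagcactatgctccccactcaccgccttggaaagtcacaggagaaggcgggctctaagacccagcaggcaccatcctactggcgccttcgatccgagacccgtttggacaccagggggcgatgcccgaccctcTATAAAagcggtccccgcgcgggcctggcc
Cebpb, chr2:167688665-167688914, plus strand: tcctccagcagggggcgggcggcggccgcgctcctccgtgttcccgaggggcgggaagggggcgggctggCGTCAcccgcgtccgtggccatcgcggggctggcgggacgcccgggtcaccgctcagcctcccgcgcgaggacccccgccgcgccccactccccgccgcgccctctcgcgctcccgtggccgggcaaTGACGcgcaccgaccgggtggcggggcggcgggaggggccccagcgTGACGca
Foxa3, chr7:19023540-19023789, minus strand: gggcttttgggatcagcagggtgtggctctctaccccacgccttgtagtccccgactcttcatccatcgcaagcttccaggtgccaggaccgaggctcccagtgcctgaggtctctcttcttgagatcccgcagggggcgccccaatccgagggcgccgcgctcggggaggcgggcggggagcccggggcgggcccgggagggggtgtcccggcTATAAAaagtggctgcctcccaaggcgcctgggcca
Onecut1, chr9:74861671-74861920, plus strand: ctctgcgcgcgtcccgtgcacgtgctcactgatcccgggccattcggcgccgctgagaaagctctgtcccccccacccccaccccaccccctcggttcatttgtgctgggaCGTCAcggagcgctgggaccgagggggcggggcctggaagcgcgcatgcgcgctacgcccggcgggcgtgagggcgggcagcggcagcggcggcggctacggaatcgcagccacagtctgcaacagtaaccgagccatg
Cebpa and Foxa3 carry TATAAA on their own strand, beginning 30 and 36 bases before the start. Cebpb has no TATAAA in this window and holds TGACG 3 times, beginning 7, 53 and 180 bases before the start. Onecut1 holds TGACG once. Of 32851 promoter windows of this length, 12.4% hold TATAAA and 17.8% hold TGACG. The Cebpb window is 81.6% G and C and that of Cebpa 66.4%, against a median of 52.4% over all windows. Of the other motifs searched on both strands, TTGCNNAA (C/EBP, in 9.56% of all windows), TGTTTAC and TGTTTGC (FOXA, 3.17% and 4.30%), CAAAGTCCA (HNF4, 0.384%), ATTGAT (ONECUT, 6.72%) and CAAGGTCA (NR5A, 1.33%), none is in these 4 windows. Among all 14 windows of the 9 genes, TGTTTAC was found once, for Foxa1, TGTTTGC once, for Prox1, TTGCNNAA once, for Nr5a2, and ATTGAT in 1 window each of Hnf4a and Foxa2. These are matches of letters and not measured binding sites.

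The libraries held between 20356440 and 21010508 fragments. Mettl14, the targeted gene, had 124, 126 and 111 counts in the controls and 104, 131 and 101 counts under AAV8-TBG-Cre, where values here and in what follows are in the order of replicates 1, 2 and 3 and the controls are the AAV8-TBG-GFP libraries. The counts overlapped, and in CPM (6.30, 6.42 and 5.81 against 4.96, 5.38 and 4.86) they were apart by a narrow margin. The log2 fold change was -0.29 ± 0.15 (SE, adjusted p = 0.337, edgeR), which did not pass the test, so the groups are called here the libraries labelled AAV8-TBG-Cre or AAV8-TBG-GFP. The labels do not say whether a count for the whole gene covers the floxed part. By immunoblot, the study reported less METTL14 protein in livers of HFD-fed floxed males given AAV8-TBG-Cre, at an earlier time after the vector. Library names come in a short form (GFP replicates 1 and 2, Cre replicate 1) and a long form (GFP replicate 3, Cre replicates 2 and 3), which the labels do not explain. Log2 ratios of Cre to GFP within each form, each with a single library on one side, are given for the 9 factors and for the lists. For Mettl14 they were -0.36 in the short and -0.18 in the long form. Hepatocyte markers were abundant in every library: Alb lay between 54550 and 80749 CPM, and Apoa1 between 7181 and 11127 CPM (counts scaled to library size with TMM). In whole liver, fewer cells of a type and less RNA per cell cannot be told apart.

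Levels can be compared between genes on the FPKM scale, which corrects for transcript length. In the AAV8-TBG-GFP livers, Cebpa, Hnf4a and Cebpb formed an upper tier, at 192 ± 11.9, 162 ± 22.5 and 153 ± 7.66 FPKM (mean ± SD, n = 3). The ranges of neighbours within this tier overlapped. Foxa3 (23.8 ± 7.87), Foxa2 (18.2 ± 6.95) and Prox1 (17.5 ± 2.10 FPKM) had the next means, with overlapping ranges well below the lowest Cebpb value of 145 FPKM. Nr5a2 (13.4 ± 0.812 FPKM), Onecut1 (8.70 ± 8.03) and Foxa1 (7.98 ± 1.81) had the lowest means. The range of Onecut1, 3.41 to 17.9 FPKM, covered those of Nr5a2 and Foxa1, and that of Foxa2, 12.2 to 25.8 FPKM, also covered that of Nr5a2. The order of the 9 means was the same in the AAV8-TBG-Cre livers. There, neighbours from Cebpa (241 ± 28.9 FPKM) through Hnf4a (191 ± 26.1), Cebpb (110 ± 15.6), Foxa3 (42.7 ± 9.92), Foxa2 (25.4 ± 3.36), Prox1 (17.1 ± 1.48) to Nr5a2 (14.4 ± 0.413) did not overlap in range, while Onecut1 (12.2 ± 8.14) and Foxa1 (10.4 ± 2.84) did. Cebpb, within the range of Hnf4a among controls, thus sat below every Hnf4a value under AAV8-TBG-Cre.

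**Figure D1:**
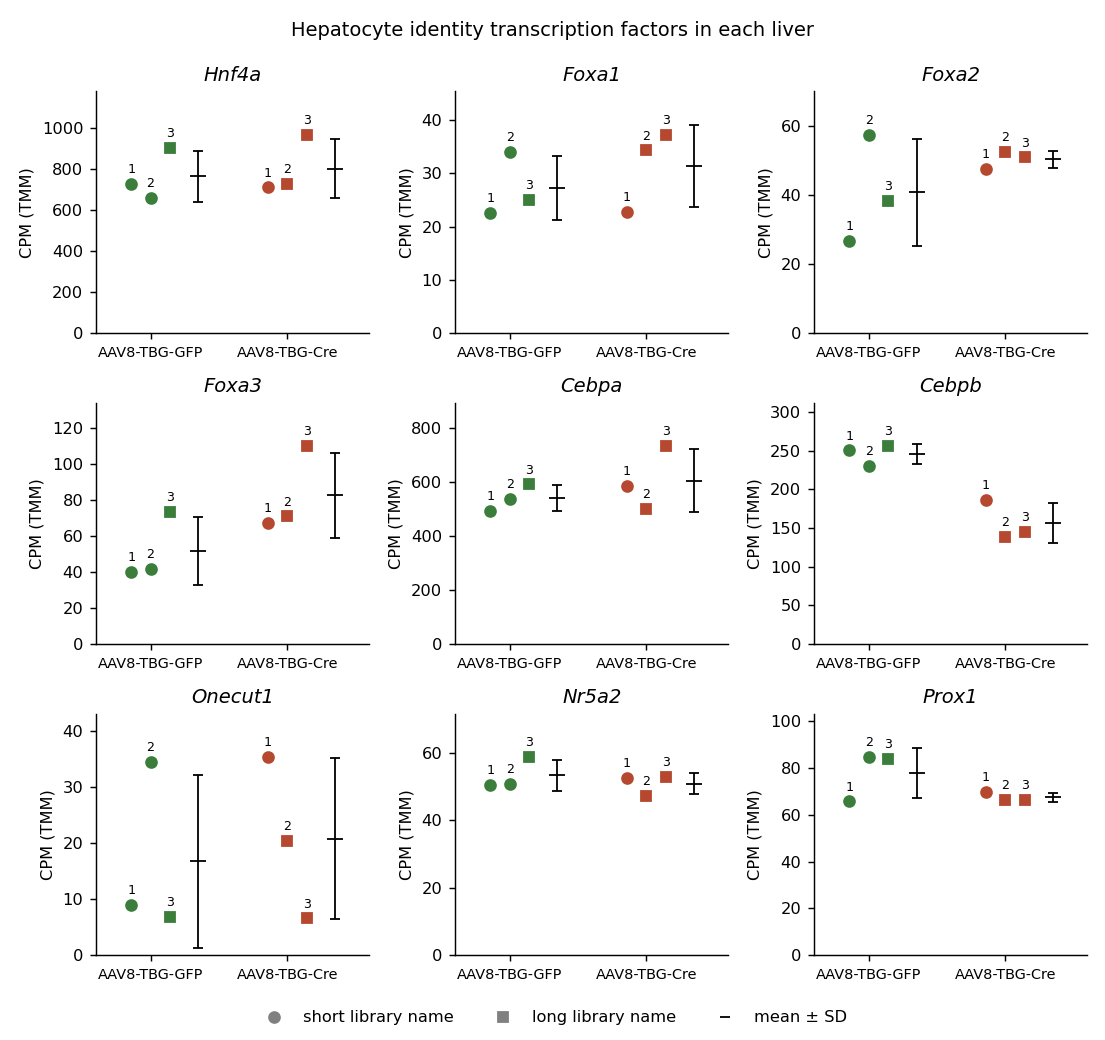
CPM (TMM scaled, linear axes from 0) of each of the 9 factors in the 3 AAV8-TBG-GFP livers (green) and the 3 AAV8-TBG-Cre livers (red). Numbers are replicates, circles and squares are short and long library names, and bars are the mean ± SD; in Cebpb alone the 2 groups do not overlap, and Onecut1 spans 6.54 to 35.2 CPM.

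Between the vectors, 0 of the 9 factors passed an adjusted p-value of 0.05 in edgeR, where 0.484% of all genes tested were called higher and 0.447% lower. At the threshold of an unadjusted p-value under 0.05 with a fold of at least 1.2, Foxa3 was higher and Cebpb lower in the AAV8-TBG-Cre livers, 2 of 9. That threshold called 12.0% of all genes tested higher and 8.41% lower, so 1 of 9 in each direction is close to the background. With DESeq2, which called 4.81% of genes higher and 2.63% lower at an adjusted p-value under 0.05, Cebpb was the 1 factor called, and limma on log2(FPKM + 1) called none. The log2 fold changes of the 9 factors ranged from -0.65 to 0.68, with 6 positive, 3 negative and a median of 0.16, beside a median of -0.0065 over all genes tested.

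**Figure D2:**
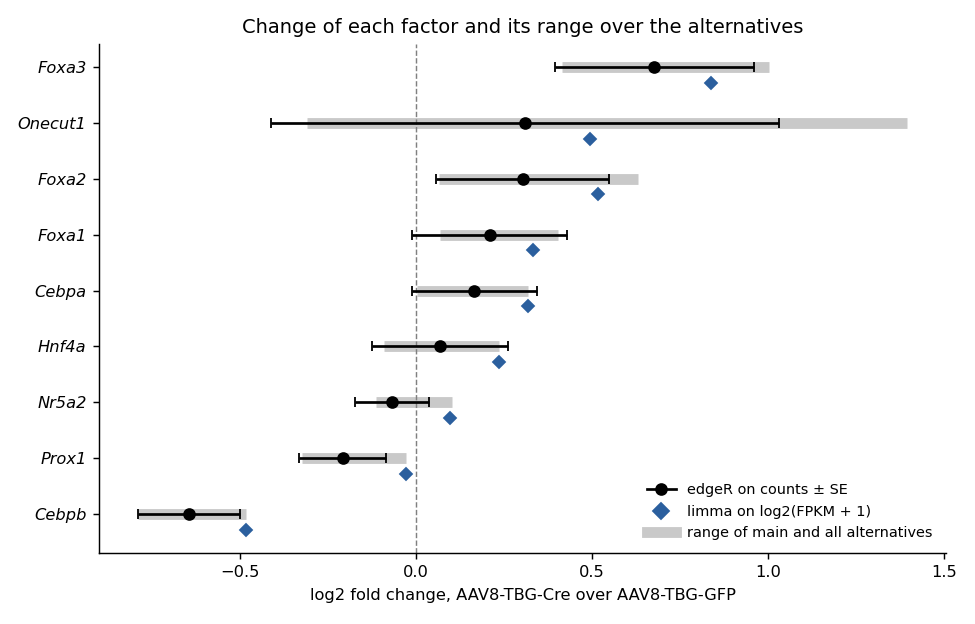
log2 fold change of each factor, AAV8-TBG-Cre over AAV8-TBG-GFP, from edgeR on counts (black, ± SE) and from limma on log2(FPKM + 1) (blue diamonds). Gray bars span the values over the main fit and all alternatives. Those of Hnf4a, Onecut1 and Nr5a2 cross 0. Those of Foxa1, Foxa2, Foxa3, Cebpa, Cebpb and Prox1 stay on one side of it, with Cebpa as near as 0.0019.

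Cebpb (chr2:167688915-167690432, GRCm38.p6) encodes C/EBPβ, a bZIP factor induced by cAMP and by inflammatory cytokines. It measured 250, 231 and 256 CPM in the controls and 187, 139 and 145 CPM under AAV8-TBG-Cre. Every AAV8-TBG-Cre library was below every AAV8-TBG-GFP library, as was so for 13.0% of genes tested on this scale, and Cre replicate 1 was the nearest to the controls. Cebpb was 36.1% lower, with a log2 fold change of -0.65 ± 0.15 (SE, adjusted p = 0.0735, edgeR). An exact two-sided permutation test gave p = 0.1, the smallest that 3 against 3 allows. DESeq2 gave an adjusted p = 0.00132, and edgeR without Cre replicate 1 gave a log2 fold change of -0.79 with an adjusted p = 0.0259. Over all alternatives the log2 fold change stayed between -0.79 and -0.48 and the adjusted p between 0.00132 and 0.207. The log2 ratio of Cre to GFP was -0.36 among short-named and -0.85 among long-named libraries.

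Cebpa (chr7:35119293-35121928), the other C/EBP factor of hepatocytes, was not lower. It measured 494, 537 and 592 CPM in the controls and 585, 500 and 734 CPM under AAV8-TBG-Cre. The groups overlapped, and Cre replicate 3 was the highest. Its log2 fold change was 0.16 ± 0.18 (SE, adjusted p = 0.646, edgeR). On the FPKM scale Cebpa was 180, 193 and 204 in the control libraries and 225, 222 and 274 in the AAV8-TBG-Cre libraries, without overlap. FPKM did not overlap and was higher under AAV8-TBG-Cre for 24.2% of genes tested and lower for 4.26%, since the log2 fold changes of all genes sit higher on that scale by a median of 0.15. The log2 fold change of Cebpa in limma on log2(FPKM + 1) was 0.32 (adjusted p = 0.215), a median shift of 0.15 included. Without Cre replicate 3 the edgeR log2 fold change was 0.0019, and within the library name forms the log2 ratio was 0.18 (short) and 0.060 (long).

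The ratio of Cebpb to Cebpa within a library does not depend on how libraries are scaled. In FPKM it was 0.890, 0.753 and 0.759 in the controls, and 0.560, 0.488 and 0.347 under AAV8-TBG-Cre. Every AAV8-TBG-Cre liver had less Cebpb relative to Cebpa than every control. Cebpb alone was already lower without overlap, as were 13.0% of genes tested in CPM, and no such share was computed for ratios of other gene pairs. The log2 ratio was -0.33 ± 0.14 in controls and -1.13 ± 0.36 under AAV8-TBG-Cre (mean ± SD, n = 3), a difference of -0.81 (p = 0.1 by exact permutation, two-sided, which is the smallest possible). Leaving out 1 library at a time gave differences between -0.95 and -0.61. The sum of both factors, 345 ± 11.3 and 350 ± 19.1 FPKM, overlapped between the groups (exact permutation test, p = 0.7). Both genes are single-exon genes whose listed transcripts differ little or not at all in sequence. The 3 Cebpb transcripts were assigned equal counts in every library, so no isoform reading was possible, and the translation of each mRNA into long and short proteins is not seen in these data.

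**Figure D3:**
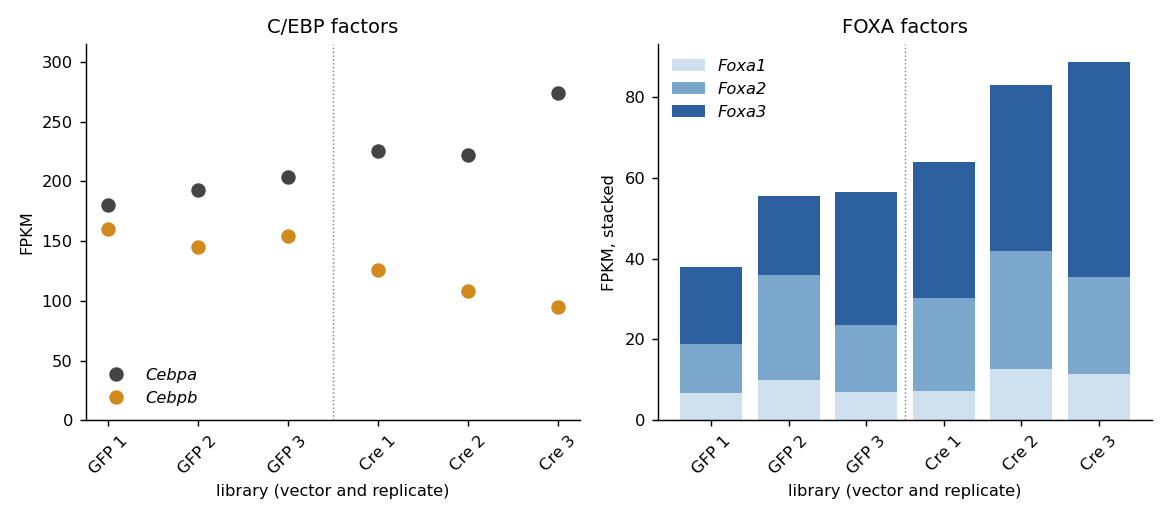
FPKM in each library of Cebpa and Cebpb (left, points) and of the 3 FOXA genes stacked (right, bars from 0), with AAV8-TBG-GFP replicates left of the dotted line and AAV8-TBG-Cre replicates right of it. The C/EBP genes lie between 180 and 160 FPKM in GFP replicate 1 and are 274 against 95.1 FPKM in Cre replicate 3; the FOXA sum runs from 37.9 to 88.7 FPKM, on a scale where all genes are shifted by a median of 0.15 (log2) between the groups.

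The FOXA genes encode 3 closely related forkhead factors, and Foxa3 is the most abundant of them in adult liver. Foxa3 (chr7:19013283-19023539) measured 40.0, 42.0 and 73.5 CPM in the controls and 67.4, 71.0 and 110 CPM under AAV8-TBG-Cre. GFP replicate 3 reached the AAV8-TBG-Cre range, so the groups overlapped in CPM. Foxa3 was 59.8% higher, with a log2 fold change of 0.68 ± 0.28 (SE, adjusted p = 0.226, edgeR), and DESeq2 gave an adjusted p = 0.157. Its unadjusted call was lost without GFP replicate 1, GFP replicate 2 or Cre replicate 3, with log2 fold changes of 0.52, 0.55 and 0.41. The log2 ratio was 0.72 within the short-named and 0.30 within the long-named libraries, where GFP replicate 3 is the single control. On the FPKM scale, 18.9, 19.6 and 32.9 in controls and 33.7, 41.0 and 53.3 under AAV8-TBG-Cre, the groups were apart by a narrow margin.

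Foxa2 (chr2:148042877-148046969), which acts in bile acid handling and fasting metabolism, measured 26.8, 57.5 and 38.4 CPM in the controls and 47.7, 52.6 and 51.0 CPM under AAV8-TBG-Cre. The AAV8-TBG-Cre values lay inside the wider range of the controls, which GFP replicates 1 and 2 set at both ends. Its log2 fold change was 0.30 ± 0.25 (SE, adjusted p = 0.530, edgeR), with 0.064 without GFP replicate 1 and 0.63 without GFP replicate 2. Within the short and long name forms the log2 ratio was 0.18 and 0.43. Foxa1 (chr12:57540628-57548029) measured 22.6, 34.0 and 25.0 CPM in the controls and 22.7, 34.3 and 37.2 CPM under AAV8-TBG-Cre. These groups also overlapped, with a log2 fold change of 0.21 ± 0.22 (SE, adjusted p = 0.636, edgeR) that ran from 0.068 (without Cre replicate 3) to 0.40 (without GFP replicate 2). Its ratio changed sign with the library names, from a log2 of -0.32 within the short form to 0.52 within the long form.

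Summed over the 3 genes, the FOXA level was 37.9, 55.4 and 56.5 FPKM in the controls and 64.0, 82.8 and 88.7 FPKM under AAV8-TBG-Cre. The groups did not overlap, and the exact two-sided permutation test gave p = 0.1, the smallest possible, on a scale that puts all genes 0.15 higher (median log2) under AAV8-TBG-Cre and where 24.2% of single genes were higher without overlap. The shares within the sum, which no scaling affects, overlapped for each gene. Foxa3 took 49.9, 35.3 and 58.2% of the sum in the controls and 52.7, 49.5 and 60.1% under AAV8-TBG-Cre (p = 0.5, exact permutation test). The mean share of Foxa2 was 36.0 ± 9.26% and 32.8 ± 5.08%, and that of Foxa1 16.2 ± 3.15% and 13.1 ± 1.98% (SD, n = 3 each).

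Hnf4a (chr2:163506811-163572907) measured 727, 661 and 905 CPM in the controls and 710, 728 and 966 CPM under AAV8-TBG-Cre. The highest library of each group was replicate 3, and the groups overlapped nearly in full. The log2 fold change was 0.07 ± 0.19 (SE, adjusted p = 0.871, edgeR), and its sign turned without Cre replicate 3 (-0.090), without GFP replicate 2 (-0.025) and with the library name form as a covariate (-0.031). Within the forms the log2 ratio was 0.034 (short) and -0.095 (long). Fragments were assigned to 2 of its transcripts, NM_008261 and NM_001312907, and the third one listed, NM_001312906, had none in any library. The lesser, NM_001312907, took 16.2, 15.6 and 18.0% of the Hnf4a counts in the control replicates and 15.8, 16.8 and 15.0% in the AAV8-TBG-Cre replicates. The split was nearly constant, and the ranges of the groups overlapped.

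Nr5a2 (chr1:136842562-136960448), an orphan nuclear receptor that acts on bile acid and cholesterol genes, was the steadiest factor. It measured 50.4, 50.8 and 58.6 CPM in the controls and 52.5, 47.2 and 52.7 CPM under AAV8-TBG-Cre, with a log2 fold change of -0.07 ± 0.11 (SE, adjusted p = 0.755, edgeR). The groups overlapped, and the sign was positive, 0.10, on the FPKM scale before the shift of all genes is taken off. It turned with the name form too, from a log2 ratio of 0.052 (short) to -0.23 (long). Its assignment to transcripts was far less steady than its total. NM_001159769 was given 16.6, 7.66 and 33.9% of the Nr5a2 counts in the control replicates and 24.9, 9.56 and 45.8% in the AAV8-TBG-Cre replicates. Shares were highest in replicate 3 and lowest in replicate 2 of both groups, and they are estimates for 2 transcripts of nearly equal length, 3635 and 3720 bases.

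Prox1 (chr1:190118035-190170827), a homeobox factor of hepatocytes and of lymphatic endothelium, measured 65.7, 84.5 and 83.7 CPM in the controls and 69.6, 66.3 and 66.5 CPM under AAV8-TBG-Cre. GFP replicate 1 was as low as the AAV8-TBG-Cre libraries, so the groups overlapped. For Prox1 the log2 fold change was -0.21 ± 0.12 (SE, adjusted p = 0.382, edgeR), and the log2 ratio was -0.11 within the short and -0.33 within the long name form. The lymphatic endothelial list summed to between 19.6 and 40.7 CPM in controls and between 22.1 and 51.9 CPM under AAV8-TBG-Cre, and Pdpn, its first marker, was at 0 in 1 library. The part of lymphatic vessels in the Prox1 level was not tested.

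Onecut1 (chr9:74861921-74889648), a cut-homeobox factor of hepatocytes and bile ducts, varied more between livers of a group than between groups. It measured 8.94, 34.4 and 6.80 CPM in the controls and 35.2, 20.4 and 6.54 CPM under AAV8-TBG-Cre. GFP replicate 2 and Cre replicate 1 were high, both replicates numbered 3 were low, and the highest library was 5.39 times the lowest. These values rest on 130 to 739 counts. The difference for Onecut1 was 0.31 ± 0.72 on the log2 scale (SE, adjusted p = 0.844, edgeR). Leaving out 1 library at a time moved it from -0.31 (without Cre replicate 1) to 1.40 (without GFP replicate 2). The log2 ratio was 0.70 within the short and 0.99 within the long name form.

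The spread between livers set the factors apart. The SD of log2 CPM within the groups, pooled over both, was 0.11 for Nr5a2, 0.15 for Prox1, 0.17 for Cebpb, 0.22 for Cebpa and 0.24 for Hnf4a. It was 0.35, 0.39 and 0.44 for Foxa1, Foxa2 and Foxa3, and 1.24 for Onecut1. Of all genes tested, 84.8% had a larger SD than Nr5a2, 44.7% a larger one than Hnf4a, 19.2% a larger one than Foxa3 and 0.871% a larger one than Onecut1.

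**Figure D4:**
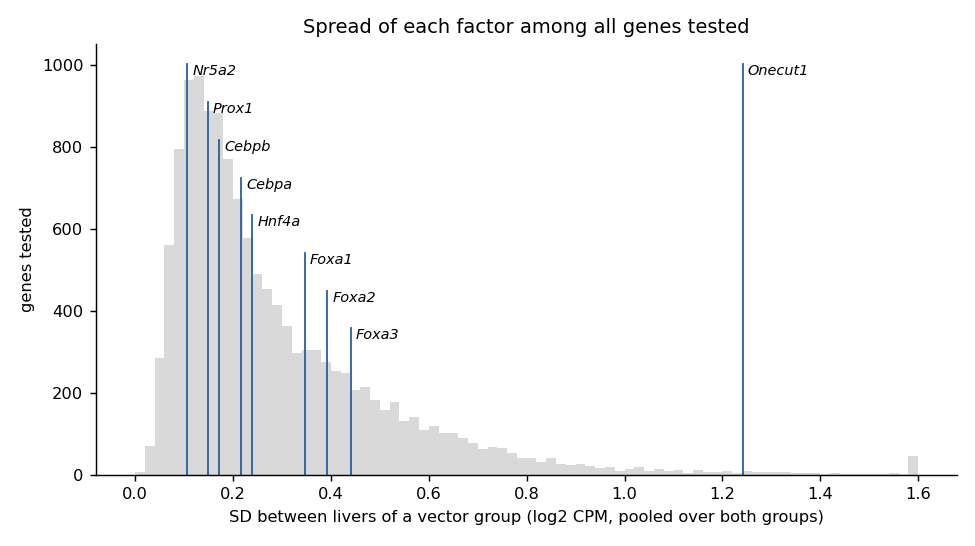
Histogram of the SD of log2 CPM between livers of a vector group, pooled over both groups, for all 13431 genes tested, with values above 1.6 placed in the last bin. Blue lines mark the 9 factors, from Nr5a2 at 0.11 to Onecut1 at 1.24, where 0.871% of genes had a larger SD.

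Over the 6 libraries, Hnf4a varied most alike with Foxa3 (Pearson r of log2 CPM, 0.79) and Cebpa (0.78) among the other factors, and opposite to Onecut1 (-0.84). Cebpb ran opposite to Foxa3 (-0.67) and Foxa1 (-0.64). These are descriptions over 6 livers that also share the difference between vectors and library name forms. Of all tested genes, Catsper2, Imp4 and Ywhae had the pattern most like that of Hnf4a (r of 0.994, 0.993 and 0.992), and 164 genes reached 0.9. Cspp1, Aldh5a1 and Ces1f were most like Cebpb (r of 0.998, 0.997 and 0.995), and 614 genes reached 0.9.

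The partners and other transcription factors of the hepatocyte network were read from a list of 21 genes, of which 21 were tested. In edgeR 1 was lower at an adjusted p-value under 0.05, and at the unadjusted threshold 5 were lower and 1 higher, with a median log2 fold change of -0.13 over the list. The gene past the adjusted threshold was Nr1i3 (CAR), a nuclear receptor for foreign compounds, at 181, 165 and 194 CPM in the controls and 84.6, 117 and 87.9 CPM under AAV8-TBG-Cre. Its groups were far apart, with a log2 fold change of -0.90 ± 0.15 (SE, adjusted p = 0.0491, edgeR), and the adjusted p ranged from 2.17e-05 with DESeq2 to 0.198 over the alternatives. It passed 0.05 without Cre replicate 1 (adjusted p = 0.0363) and in none of the fits that left out another library. The other genes lower at the unadjusted threshold also belong to the nuclear receptor family. Rxra, Nr2f1 and Nr2f2, of the same family and list, were not called. Of the lower genes, Nr0b2 was named by rule and the rest after their values were seen. They were Nr0b2 (SHP, log2 fold change -0.71 ± 0.27), Ppara (-0.52 ± 0.14), Nr1i2 (PXR, -0.49 ± 0.17) and Nr1h4 (FXR, -0.48 ± 0.15; SE for each). Their adjusted p-values in edgeR were 0.200, 0.0970, 0.161 and 0.147.

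Nr0b2, the small partner that represses NR5A2 and HNF4A, measured 44.0, 35.5 and 52.7 CPM in the controls and 25.3, 37.9 and 17.5 CPM under AAV8-TBG-Cre, where Cre replicate 2 lay within the control range.

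Genes that the factors are known to regulate were read from 6 lists, several of which share genes and 1 of which, that of ONECUT1, holds the factors Foxa2 and Hnf4a. Without the 9 factors the lists hold 55 genes, all tested. At an adjusted p-value under 0.05, 0 of them passed in edgeR and in limma on log2(FPKM + 1), while DESeq2, which gave an adjusted p for 54, called 7 lower and 1 higher. In edgeR 12 were lower and 4 higher at the unadjusted threshold, and the median log2 fold change was -0.22. Of these 55, 11 were lower without overlap between the groups and 2 were higher without overlap, beside 13.0% and 14.0% of all genes tested. The percentages of genes called at the unadjusted threshold, 8.41% lower and 12.0% higher, are the background to the counts that follow.

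Of 24 HNF4A targets, 6 were lower and 1 higher at the unadjusted threshold, and the median log2 fold change was -0.22. Slco1b2, a hepatocyte uptake transporter for organic anions, measured 1068, 1129 and 1140 CPM in the controls and 746, 784 and 848 CPM under AAV8-TBG-Cre, without overlap (log2 fold change -0.49 ± 0.14, SE). Apoa2, an apolipoprotein of HDL, measured 5842, 5516 and 6267 CPM against 3941, 3355 and 4263 CPM, also without overlap (-0.61 ± 0.19, SE). Cyp7a1, the rate-limiting enzyme of bile acid synthesis, was the gene on the higher side, at 229, 170 and 229 CPM against 269, 273 and 270 CPM (0.37 ± 0.15, SE). Adjusted p-values of the 3 genes in edgeR were 0.119, 0.142 and 0.207. Apoa1, an HNF4A target as well, overlapped between groups at a log2 fold change of 0.10 ± 0.27 (SE).

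Of 11 FOXA targets, 3 were lower and 0 higher at the unadjusted threshold, with a median of -0.24. Abcb11, the bile salt export pump, measured 417, 386 and 403 CPM in the controls and 293, 247 and 288 CPM under AAV8-TBG-Cre, without overlap (log2 fold change -0.54 ± 0.13, SE; adjusted p = 0.0789, edgeR). Ttr, the thyroid hormone carrier transthyretin, measured 6379, 6048 and 5735 CPM against 5040, 3576 and 3625 CPM (-0.57 ± 0.22, SE; adjusted p = 0.194, edgeR).

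Targets of the C/EBP factors were split into metabolic and acute phase genes. Of 9 metabolic targets, 1 was lower and 1 higher at the unadjusted threshold (median -0.19). G6pc, the catalytic unit of glucose-6-phosphatase and a target in several of the lists, measured 320, 339 and 171 CPM in the controls and 190, 48.2 and 27.0 CPM under AAV8-TBG-Cre. GFP replicate 3 and Cre replicate 1 overlapped, and the log2 fold change was -1.65 ± 0.67 (SE, adjusted p = 0.219, edgeR). Cps1, the first enzyme of the urea cycle, measured 2496, 2942 and 1814 CPM against 4751, 2971 and 4396 CPM, apart by a small margin at Cre replicate 2 (0.74 ± 0.27, SE; adjusted p = 0.177, edgeR). Of 11 acute phase targets, 3 were lower and 0 higher at the unadjusted threshold, with a median of -0.46. The median rests on GFP replicate 3. The list summed to 18812, 17145 and 34122 CPM in the controls and 25010, 18176 and 19808 CPM under AAV8-TBG-Cre. Without GFP replicate 3 the median was -0.10, with 1 gene lower and 1 higher. Within the short name form 8 of the 11 genes were higher under AAV8-TBG-Cre (median log2 ratio 0.34), and within the long form, where GFP replicate 3 is the single control, 0 were (median -1.43). Saa2, a serum amyloid A gene, measured 73.3, 89.0 and 825 CPM in the controls and 78.5, 55.9 and 51.8 CPM under AAV8-TBG-Cre, so its log2 fold change of -2.41 ± 0.89 (SE, adjusted p = 0.186, edgeR) rests on GFP replicate 3. Saa3 measured 3.76, 6.83 and 11.7 CPM against 2.62, 3.53 and 3.13 CPM, without overlap (-1.26 ± 0.39, SE; adjusted p = 0.134, edgeR). The third gene lower, Saa1, is named after its values were seen and had the same single high control (1224 CPM in GFP replicate 3, 140 and 193 CPM in GFP replicates 1 and 2).

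Of 10 NR5A2 targets, 2 were lower and 2 higher (median 0.14). Abcg8, a subunit of the sterol exporter of hepatocytes, measured 155, 167 and 138 CPM in the controls and 125, 57.2 and 55.8 CPM under AAV8-TBG-Cre, without overlap (log2 fold change -0.95 ± 0.31, SE; adjusted p = 0.146, edgeR), and Nr0b2 was the other. Apom, an HDL apolipoprotein, measured 94.4, 90.0 and 131 CPM against 124, 130 and 203 CPM (0.54 ± 0.23, SE; adjusted p = 0.238, edgeR) and overlapped, and Cyp7a1 was the other on the higher side. Of 9 ONECUT1 targets, 2 were lower (Ttr and G6pc) and 2 higher (Cyp7a1 among them), with a median of 0.07. Within the short and long name forms, the median log2 ratio was -0.054 and -0.40 for HNF4A targets, -0.097 and -0.40 for FOXA targets, 0.15 and -0.34 for metabolic C/EBP targets, 0.083 and -0.012 for NR5A2 targets and 0.034 and 0.14 for ONECUT1 targets. The medians of the HNF4A and FOXA lists were thus negative in both forms, while those of metabolic C/EBP and NR5A2 targets turned. In the short form 10 of 24 HNF4A targets and 3 of 11 FOXA targets were still higher under AAV8-TBG-Cre. The median of the hepatocyte markers turned too, from 0.26 (short) to -0.34 (long). Leaving out Cre replicate 2 brought the HNF4A median to -0.074 and the FOXA median to -0.11. Leaving out Cre replicate 1 brought them to -0.39 and -0.51, with 11 and 5 genes lower at the unadjusted threshold. In that fit more genes of all kinds passed this threshold in either direction, 3730 against 2747 in the main fit.

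**Figure D5:**
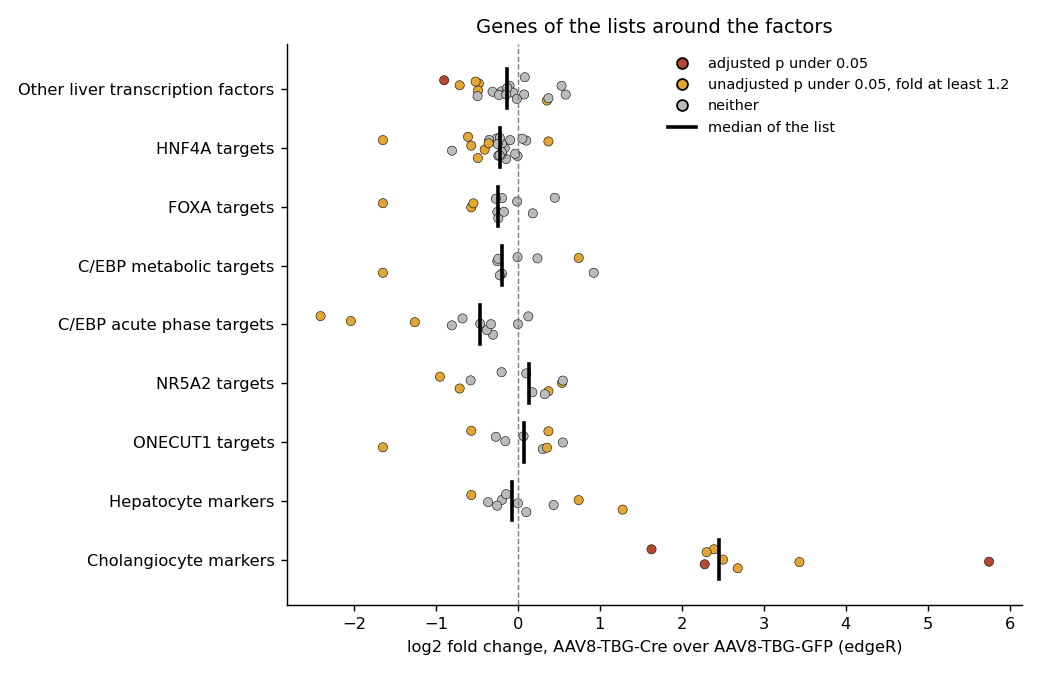
log2 fold change (edgeR, AAV8-TBG-Cre over AAV8-TBG-GFP) of each tested gene in the lists of other transcription factors, targets of the factors, hepatocyte markers and cholangiocyte markers. Colors give the threshold passed and black bars the list median, which runs from -0.46 for acute phase targets to 0.14 for NR5A2 targets among target lists and is 2.45 for cholangiocyte markers.

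Markers of some other liver cell types, but not of all, differed between the vectors. Several of the factors are also expressed outside hepatocytes (Onecut1, Foxa1 and Foxa2 in bile ducts, Cebpb in macrophages, Prox1 in lymphatic vessels). Of 10 hepatocyte markers, 1 was lower and 2 higher at the unadjusted threshold, and their sum was 114391 to 140715 CPM in controls and 99288 to 122007 CPM under AAV8-TBG-Cre. Of 9 cholangiocyte markers, 8 were tested and all 8 were higher at the unadjusted threshold, with a median log2 fold change of 2.45. The list summed to 50.4 to 104 CPM in controls and 273 to 544 CPM under AAV8-TBG-Cre, and its first markers Krt19 and Krt7 had log2 fold changes of 2.50 ± 0.52 and 2.39 ± 0.51 (SE). Sox9, Spp1 and Cldn4 passed an adjusted p-value of 0.05 in edgeR (adjusted p = 0.0454, 0.0444 and 0.0409), with log2 fold changes of 1.63, 2.28 and 5.75. Each passed in 1 of the 6 fits that left out a library, the fit without Cre replicate 1. Their adjusted p-values were 5.26e-06, 2.65e-08 and 3.60e-07 with DESeq2 and 0.0918, 0.0749 and 0.142 in limma on log2(FPKM + 1). Cldn4 was near the floor in the controls, at 1, 2 and 1 counts against 31, 194 and 51 counts under AAV8-TBG-Cre. Its log2 fold change in that limma fit was 1.52. Of 12 macrophage and Kupffer cell markers, 9 were higher and 0 lower, and the list summed to 329 to 380 CPM in controls and 528 to 815 CPM under AAV8-TBG-Cre. Clec4f and Vsig4, its first markers, had log2 fold changes of 0.29 ± 0.19 and 0.36 ± 0.15 (SE). Cd5l passed the adjusted threshold at 0.71 (adjusted p = 0.0471, edgeR), again with 1 of the 6 fits that left out a library, that without Cre replicate 1, past the threshold. Its adjusted p was 0.000138 with DESeq2 and 0.0870 in limma on log2(FPKM + 1). The median log2 ratio within the short and long name forms was 1.78 and 3.12 for the cholangiocyte list and 0.50 and 0.94 for the macrophage list. The part of these cells in the levels of Foxa1, Foxa2, Foxa3, Onecut1 and Cebpb was not tested.

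Of 9 stellate cell and fibroblast markers, 5 were higher and 0 lower at the unadjusted threshold, with a sum of 213 to 321 CPM in controls and 446 to 966 CPM under AAV8-TBG-Cre. Lrat and Des, the first of that list, had log2 fold changes of -0.25 ± 0.32 and 0.13 ± 0.22 (SE), and the 5 higher genes were Col1a2 and Col3a1 and, named after their values were seen, Col1a1, Lum and Pdgfrb. Of 9 endothelial markers 1 was lower and 0 higher, and the sums overlapped (219 to 359 and 235 to 275 CPM). The lymphatic, T and NK cell, B cell and neutrophil lists had 2, 3, 1 and 4 tested genes and summed to at most 51.9, 6.36, 3.96 and 15.6 CPM in any library. S100a8, a neutrophil gene, passed the adjusted threshold at 0.254 to 0.306 CPM in controls and 1.14 to 1.30 CPM under AAV8-TBG-Cre (log2 fold change 2.10, adjusted p = 0.0409, edgeR; of the fits that left out a library, passed only without Cre replicate 1), while Mpo, Retnlg, Gzma and Ms4a1 of these lists were each at 0 in 1 library. For S100a8 the adjusted p was 0.00482 with DESeq2 and 0.0123 in limma on log2(FPKM + 1). At the unadjusted threshold 2 neutrophil genes were higher and 1, Ly6g, was lower. Ly6g, named after its values were seen, measured 5.03, 5.97 and 5.18 CPM in the controls. Under AAV8-TBG-Cre it measured 4.29, 3.69 and 3.32 CPM, without overlap (log2 fold change -0.52 ± 0.19, SE; adjusted p = 0.177, edgeR). The part of all these cell types in the levels of the 9 factors was not tested.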

How the data were processed

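Liver RNA was sequenced at BGI in 6 mice, 3 for each vector named in the labels. For every transcript the authors deposited an expected count, which is an unnormalized estimate of its fragments and can be fractional. FPKM values, scaled by transcript length and library size, were deposited by transcript and by gene. The submitters' processing notes name HISAT2, Bowtie2, RSEM and mm10, whereas STAR, HTSeq and DESeq2 are named in the study's methods. Expected counts were summed per gene ID and rounded. Genes were tested with edgeR 4.0.16 (R 4.3.3) by quasi-likelihood, with TMM normalization and filterByExpr, and p-values were adjusted by Benjamini-Hochberg over all 13431 genes. CPM values are TMM scaled.

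Genes were called at an adjusted p-value under 0.05 and, separately, at the study's threshold of an unadjusted p-value under 0.05 with a fold of at least 1.2. As alternatives, normalization was by RLE or upper quartile, the filter was dropped or set to 10 counts in all libraries, a block for the replicate number or a covariate for the library name form was added, the fold was set to 1.5, each library was left out, and DESeq2 1.42.0 was run. Limma 3.58.1 was run on log2(FPKM + 1) and log2(FPKM + 0.1) for genes reaching 0.5 FPKM in 3 libraries, the former also unfiltered. Permutation tests were exact and two-sided. The fits were tested on simulated data. No 2 libraries of a group agreed within sampling noise.

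The 9 factors, the gene lists and the motifs were chosen with earlier results of these data known. Named genes are the 9 factors, Mettl14, Nr0b2, each list's genes with an adjusted p-value under 0.05 or otherwise up to 2 per direction with the smallest p-value past the unadjusted threshold, the first 2 genes of marker lists, and the 3 genes most like Hnf4a and Cebpb in pattern. Some genes of the lists are counted but not reported here by name. Tf was matched through an older symbol. Promoter sequences are from RefSeq (GRCm38.p6), which held windows for all 9 factors. P-values set the difference between the vectors against the spread between these samples. Strand use in counting was not stated, so reads of overlapping antisense genes cannot be told apart.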

Additional observations from a re-analysis of the deposited data

How the results depend on the processing

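With 3 livers per vector, the number of genes past an adjusted p-value of 0.05, 125 in edgeR, depended on the method: 1157 with DESeq2, 66 with upper quartile normalization, 372 without a filter, 76 with at least 10 counts in every library, 214 with the library name form as a covariate, and 22, 27 and 9 in limma on log2(FPKM + 1), on log2(FPKM + 0.1) and on log2(FPKM + 1) without a filter. It ran from 0 (without GFP replicate 2 or Cre replicate 2, where 2079 and 1899 genes still passed the unadjusted threshold) to 928 (without Cre replicate 1). A fold of at least 1.5 left 1699 genes at the unadjusted threshold, where 2747 had passed. Factors past the adjusted threshold numbered 1 with DESeq2 (Cebpb, log2 fold change -0.65) and 0 to 1 with a library left out. Those past the unadjusted threshold numbered 1 to 2 with a library left out and 3 (Cebpa the third) in each limma fit. Beside Cebpb, Foxa3 gave way to Prox1 without GFP replicate 1 (log2 fold change -0.33) and to Foxa2 without GFP replicate 2 (0.63). With a library left out, the log2 fold change of Cebpb ran from -0.79 to -0.57, that of Hnf4a from -0.090 to 0.20 and that of Onecut1 from -0.31 to 1.40. Hnf4a reversed to -0.031 with the library name form as a covariate, and Nr5a2 to 0.10 in each of the 3 limma fits. The cause of these differences was not tested. Foxa1, Foxa2, Foxa3, Cebpa, Cebpb and Prox1 kept their sign in all 16 alternatives, with Cebpa at 0.0019 without Cre replicate 3.

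Deviations of same-numbered libraries from their group means correlated at 0.000571, -0.257 and 0.201. GFP replicates 1 and 2 each correlated best with another number in the AAV8-TBG-Cre group, and GFP replicate 3 with its own. With 3 livers per vector, these correlations are too few to settle whether the replicate numbers pair the livers. With the replicate number as a block, 7 genes passed the adjusted threshold and none of the 9 factors did, Cebpb had a log2 fold change of -0.66 and Foxa3 one of 0.70, and the difference in the log2 ratio of Cebpb to Cebpa was -0.81 (exact sign-flip test, p = 0.25, the smallest possible).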
